A study of Mus musculus with 12 samples.

Results

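Regulatory T cells of the stromal vascular fraction of mouse adipose tissue were examined, in the epididymal (eWAT) and the inguinal (iWAT) white depot. A cell was taken as a member when it held at least 1 UMI, a molecule counted by its own tag, of Foxp3 and at least 1 UMI of Cd3d, Cd3e or Cd3g, and no UMI of the macrophage gene Adgre1 or the B cell gene Cd79a. Of the 126095 cells kept at 700 to 22000 UMIs, 200 to 6000 genes and under 25% mitochondrial UMIs, 179 were members (0.142%). The members were thus selected on measured values, the UMI counts of these 6 genes in each cell. They made up 2.17% of the 8259 T cells, the cells that met the same rule without its Foxp3 condition. In eWAT there were 31 members and in iWAT 148.

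The 12 single-cell RNA-seq libraries, 6 per depot, came from male mice of 12 weeks in 3 groups. WT-Veh mice were lean C57BL/6J animals, ob/ob-Veh mice carried the Lepob mutation in both copies of the leptin gene and became obese, and both received methylcellulose vehicle by gavage. Mice of the ob/ob-Rosi group were Lepob/Lepob animals given rosiglitazone, a PPARγ agonist used against diabetes, at 30 mg/kg for 3 days. Each group had 2 libraries per depot, from digested tissue without the floating adipocytes, and nothing in the sources used here says whether the eWAT and iWAT libraries of a number came from the same mouse.

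Regulatory T cells are CD4 T cells that restrain other immune cells, and the transcription factor Foxp3 sets their programme. They depend on IL-2, which they bind with the high-affinity receptor chain CD25 (Il2ra), and they carry the inhibitory receptor CTLA-4. Adipose tissue of lean mice is known for a resident population that expresses the IL-33 receptor ST2 (Il1rl1), the growth factor amphiregulin (Areg), the receptor Klrg1 and PPARγ (Pparg). In the mm10 build (GRCm38, GENCODE annotation), Foxp3 lies at chrX:7573644-7595245, Il2ra at chr2:11642807-11693193, Ctla4 at chr1:60887000-60915832, Il1rl1 at chr1:40429570-40465415 and Pparg at chr6:115360951-115490399. Reads came from the 3-prime end of transcripts of these genes, and isoforms were not separated.

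Members were shallow cells that mostly passed on the least possible evidence. They held 578863 UMIs together, with a median of 1829 (714 to 20356) per cell, against deposited totals of 20132553 to 92475986 UMIs per library. A single Foxp3 UMI was counted in 131 members, and 48 held 2 or more. Just outside the rule, of 372 cells with any Foxp3 UMI, stood 102 with no UMI of Cd3, Adgre1 or Cd79a. With a Cd3 UMI, 31 also held Adgre1 and 9 also held Cd79a, all 9 from iWAT WT-Veh 1, and a further 52 held Adgre1 or Cd79a and no Cd3 UMI. No barcode of a member was shared between libraries.

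The library labelled iWAT WT-Veh 1 stood apart before any comparison was made. T cells were 26.9% of its cells against 0.722% to 9.31% in the other 11, B cells (Cd79a, no Cd3 UMI) were 8.72% against 0.318% to 2.01%, and its median of 1132 UMIs per kept cell was the lowest. In this library a Foxp3 UMI was found in 1.31% of T cells (median 1161 UMIs), but also in 0.956% of cells with the macrophage gene Adgre1 (median 1720 UMIs) and in 0.470% of B cells (median 1152.5 UMIs), none of which held a Cd3 UMI. The corresponding shares in iWAT WT-Veh 2 were 4.48% of T cells, 0.103% of Adgre1 cells and 0 of 131 B cells, which allows up to 2.29%. In iWAT ob/ob-Rosi 2 they were 6.75% of T cells and 0.0494% of Adgre1 cells. Free RNA gives UMIs to cells that do not express a gene, and the inguinal depot encloses a lymph node, which is rich in T and B cells. The part of free RNA and of lymph node cells in the 60 members of this library was not tested, and the main shares and pooled levels of members are given with and without it.

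Members carried the other genes of regulatory T cells far more often than other CD4 T cells did. At least 2 of Il2ra, Ctla4, Ikzf2 (Helios) and Tnfrsf18 (GITR), none of which the rule used, were detected in 117 of 179 members (65.4%), against 109 of 597 Foxp3-negative Cd4 T cells (18.3%; Cd3 and Cd4 UMIs, no Cd8a or Cd8b1 UMI, no Adgre1, no Cd79a). The share was higher in members in each of the 9 libraries that held any. Without iWAT WT-Veh 1 the shares were 99 of 119 (83.2%) and 69 of 326 (21.2%). None of the 4 genes was found in 29 of the 60 members of iWAT WT-Veh 1 (48.3%), and in 2 of the other 119 (1.68%). A Cd4 UMI, required of the comparison cells, was found in 36 of the 179 members (20.1%). Depth differed too, with 578863 UMIs in the 179 members and 1490716 in the 597 comparison cells. Members had higher median UMIs in eWAT WT-Veh 2 (2883 against 1906) and iWAT WT-Veh 2 (3010 against 2469). They had lower ones in iWAT WT-Veh 1 (1305 against 1402) and iWAT ob/ob-Rosi 2 (1781 against 2005).

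Of the markers of the label, Foxp3 was required by the rule and the other 4 were unevenly detected. Ctla4 was found in 56.4% of members and 24.5% of Foxp3-negative Cd4 T cells (70.6% and 26.7% without iWAT WT-Veh 1), and Il2ra in 39.1% and 8.21% (49.6% and 7.98%). The tissue marker Il1rl1 was found in 35.8% against 7.71% (47.9% and 12.0% without that library). Pparg was found in 10.6% against 2.85% (12.6% and 2.15%), and its UMIs were at 0 in members of 4 of the 9 libraries.

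The number of Foxp3 UMIs was tied to the library. Members with 2 or more Foxp3 UMIs held Il2ra in 58.3% of cells and Ikzf2 in 81.2%, and members with 1 Foxp3 UMI in 32.1% and 58.0%, but 56 of the latter 131 came from iWAT WT-Veh 1. Without that library the shares were 59.1% and 81.8% against 44.0% and 73.3%. Members with 2 or more Foxp3 UMIs were also deeper, with 222381 UMIs in 48 cells against 356482 UMIs in 131. Scaled to a common total of UMIs (CPM), Il2ra was at 373 against 238 CPM and Ikzf2 at 850 against 760 CPM. Leaving out iWAT WT-Veh 1, these were 357 against 276 CPM and 686 against 672 CPM, so little of the Ikzf2 gap was left. The 102 excluded Foxp3-positive cells without Cd3, Adgre1 and Cd79a held Il2ra in 17.6%, Ikzf2 in 26.5% and Pparg in 13.7% of cells (14 of 56 cells, 33.9% and 16.1% without that library), so Pparg was no less frequent in them than in members. The 31 with Adgre1 held Il2ra in 51.6% and Ikzf2 in 71.0%. These 31 cells were deeper than members, with 220541 UMIs together against 578863 in the 179 members. In CPM they stood below members, at 177 against 290 for Il2ra and 399 against 795 for Ikzf2.

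**Figure D1:**
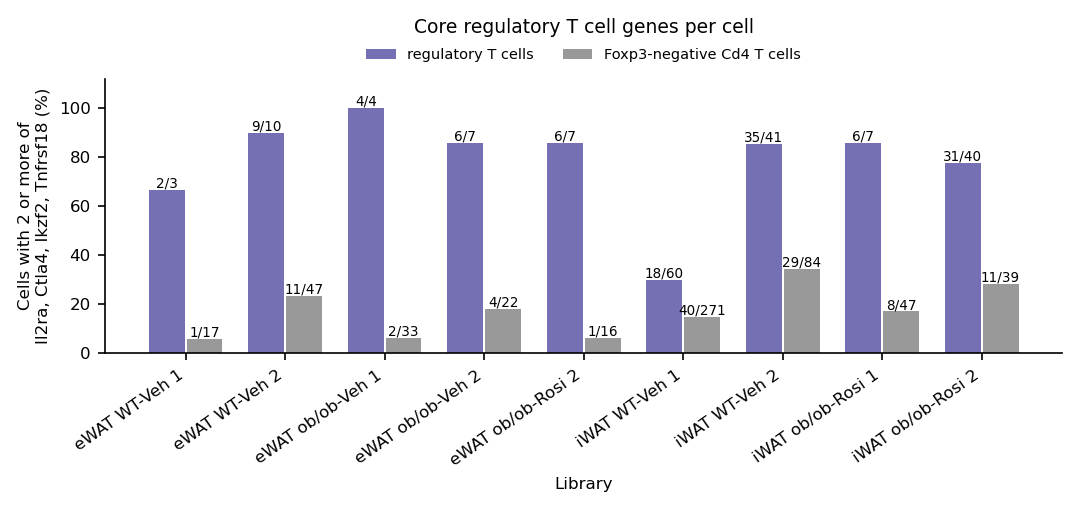
Share of cells (%, y axis) with UMIs of 2 or more of Il2ra, Ctla4, Ikzf2 and Tnfrsf18 in each library with members (x axis), for regulatory T cells and Foxp3-negative Cd4 T cells. In iWAT WT-Veh 1 it was 18 of 60 members against 40 of 271 Cd4 T cells, and in iWAT WT-Veh 2 it was 35 of 41 against 29 of 84.

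Transcripts of other cells were present in members and in the comparison cells. Lyz2, a myeloid gene, was found in 70.4% of members and 70.7% of Foxp3-negative Cd4 T cells, and the macrophage gene C1qa in 30.7% and 39.2%. The collagen gene Col3a1 was found in 48.6% and 38.4%. Without iWAT WT-Veh 1 these shares were 68.1% and 72.7% for Lyz2, 26.1% and 38.3% for C1qa and 49.6% and 43.9% for Col3a1. Single libraries differed in direction, with C1qa in 12.5% of members and 43.6% of comparison cells of iWAT ob/ob-Rosi 2 but in 70.0% and 44.7% in eWAT WT-Veh 2. The adipocyte gene Adipoq was at 0 in members. Cd8b1 was counted in 11 members and Cd8a in 2. No doublet caller was run on so small a set, and the part of free RNA or doublets in these transcripts was not tested.

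Numbers of regulatory T cells differed most between the iWAT groups. In iWAT the WT-Veh libraries held 60 and 41 members, the ob/ob-Veh libraries 0 and 0, and the ob/ob-Rosi libraries 7 and 40. In eWAT the numbers were 3 and 10 in WT-Veh, 4 and 7 in ob/ob-Veh and 0 and 7 in ob/ob-Rosi. Of all kept cells, the iWAT WT-Veh libraries had 0.352% and 0.417% members (0.384% ± 0.0461, SD, n = 2), and the ob/ob-Rosi libraries 0.0724% and 0.229% (0.150% ± 0.110, SD, n = 2). The 0 of 14408 cells in iWAT ob/ob-Veh allows a share of up to 0.0208%, counting error only, which is below every other iWAT library at full depth. Kept cells had medians of 1998 and 1919 UMIs in iWAT ob/ob-Veh, 1132 and 4671 in iWAT WT-Veh and 3714 and 3160.5 in iWAT ob/ob-Rosi. In eWAT the 3 groups overlapped, at 0.0874% ± 0.0948, 0.0670% ± 0.0330 and 0.0348% ± 0.0492 (SD, n = 2 each) in the same order.

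As a share of T cells, the absence in iWAT ob/ob-Veh could be judged less firmly, because its libraries held 52 and 166 T cells. The 0 of 218 T cells together allows a share of up to 1.38%, and the 2 libraries alone allow 5.77% and 1.81%. Only 3 of the 52 and 34 of the 166 held 2 or more Cd3 UMIs, so most of these T cells rested on 1 Cd3 UMI. In iWAT WT-Veh 1387 of 4592 and 758 of 916 did, and in iWAT ob/ob-Rosi 179 of 349 and 389 of 593. Of the T cells with 2 or more Cd3 UMIs, members were 1.87%, 4.75%, 2.79% and 7.46% in these 4 libraries. Under the main rule the share in iWAT WT-Veh was 1.31% (95% exact Clopper-Pearson interval 0.999 to 1.68) and 4.48% (3.23 to 6.02), and in iWAT ob/ob-Rosi 2.01% (0.81 to 4.09) and 6.75% (4.86 to 9.07). In all, Foxp3 gave 6 and 3 UMIs over every cell of the ob/ob-Veh libraries. eWAT shares ran from 1.35% to 3.04% of T cells in the 5 libraries with members, and the 0 of 192 T cells in eWAT ob/ob-Rosi 1 allows 1.56%, so no difference between eWAT groups was detectable at this depth.

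No difference between groups passed the exact permutation test over libraries, with condition labels permuted within depots. As a share of all cells, the difference of ob/ob-Veh from WT-Veh was -0.202 percentage points over both depots (-0.0205 in eWAT, -0.384 in iWAT; p = 0.167, two-sided exact permutation test, adjusted p = 0.444 over 8 comparisons). The difference of ob/ob-Rosi from ob/ob-Veh was +0.0591 points (-0.0322 in eWAT, +0.150 in iWAT; p = 0.389, exact permutation test, adjusted p = 0.519). The difference of ob/ob-Rosi from WT-Veh was -0.143 points (p = 0.111, exact permutation test, adjusted p = 0.444). The 36 arrangements allow no p below 0.0556, and within a depot the 6 arrangements none below 0.333, so this design could not reach a p of 0.05.

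As a share of T cells, the depots were set side by side without a test of their difference. The differences were +0.325 points in eWAT and -2.89 in iWAT for ob/ob-Veh against WT-Veh, and -0.913 and +4.38 for ob/ob-Rosi against ob/ob-Veh (p = 0.389 for each over both depots, exact permutation test, adjusted p = 0.519). The difference of eWAT from iWAT was -0.115 points of all cells (p = 0.130, exact permutation test within conditions, adjusted p = 0.444) and -0.596 points of T cells (p = 0.685, adjusted p = 0.778). With the replicate number as a block, since the numbers were taken to pair the depots, these p values were 0.1875 and 0.625 by the exact permutation test.

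Depth moved the counts strongly. With every cell thinned to 700 UMIs, 58 members were left, 25 and 12 in iWAT WT-Veh and 2 and 14 in iWAT ob/ob-Rosi, which were 0.725%, 1.85%, 0.877% and 3.7% of T cells. Of all kept cells they were 0.147%, 0.122%, 0.0207% and 0.08%. At this depth iWAT ob/ob-Rosi 1 was thus no higher than the 0.0208% that the 0 in iWAT ob/ob-Veh allows. In eWAT 5 were left, at 0% to 1.54% of T cells.

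**Figure D2:**
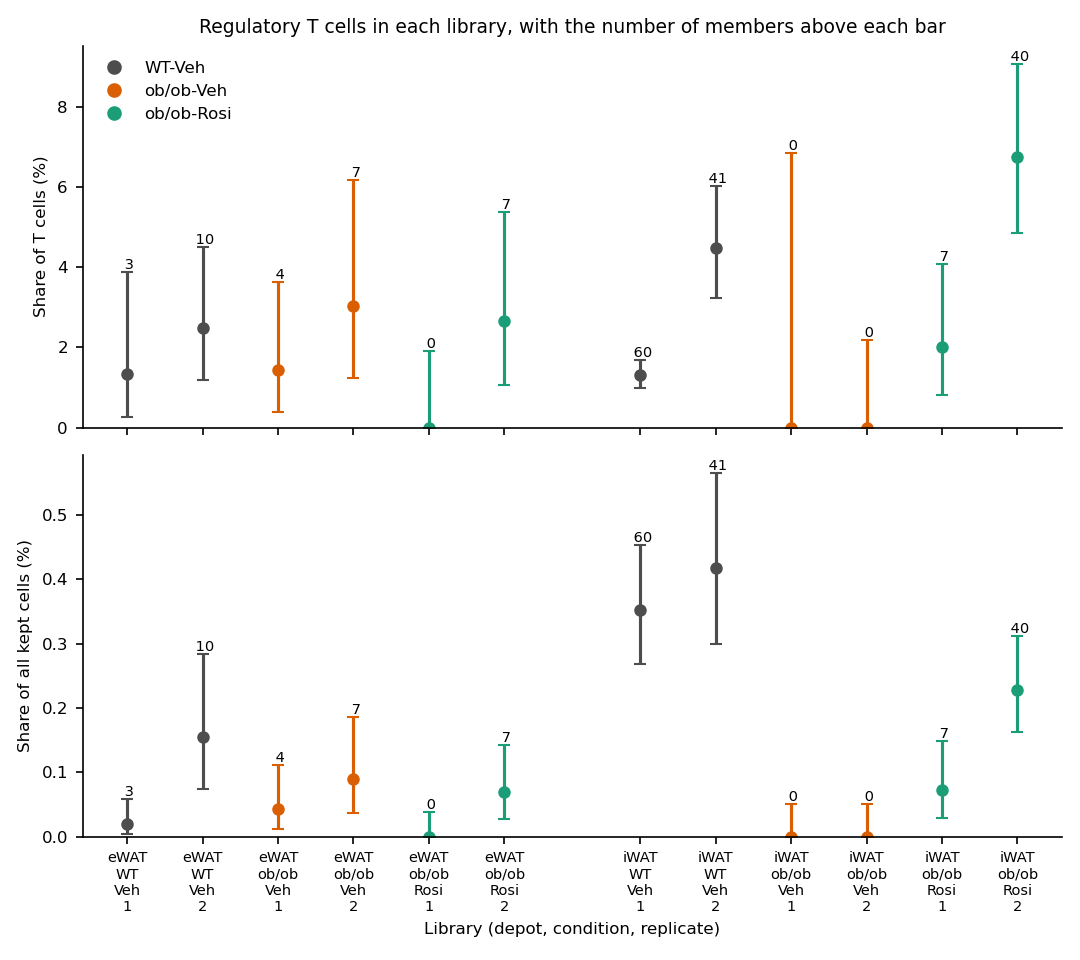
Regulatory T cells as a share (%) of all kept cells and of T cells in each library, with exact 95% Clopper-Pearson intervals as error bars and the number of members above each bar. Both iWAT ob/ob-Veh libraries sit at 0, and the iWAT WT-Veh libraries at 0.352% and 0.417% of all cells are the highest.

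Which genes set regulatory T cells apart from other CD4 T cells of the same library was tested on summed counts of the 4 libraries with at least 10 cells of both kinds (eWAT WT-Veh 2, iWAT WT-Veh 1, iWAT WT-Veh 2 and iWAT ob/ob-Rosi 2), with the library as a block. Ikzf2, the Helios factor that stabilises regulatory T cells, was higher, and Bcl2, Satb1 and Ccl5 were lower. Of 2711 genes tested, 4 were called (0.148%), 1 higher (0.0369%) and 3 lower (0.111%), at an adjusted p of at most 0.05 by edgeR's quasi-likelihood test, with 3 residual degrees of freedom. Before adjustment, 121 lay above and 136 below 0 at p under 0.05. All levels are given as CPM, the UMIs of a gene scaled to a common total of the summed UMIs of the cells, in that order of libraries.

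Ikzf2 (chr1:69531214-69687245, minus strand) reached 268.1, 1258, 663 and 583 CPM in members and 98.6, 459, 138 and 75.9 CPM in Foxp3-negative Cd4 T cells. It was higher in members in each of the 4 libraries, by a log2 fold change of 1.86 (SE 0.25, edgeR adjusted p = 0.0103). Bcl2, which protects resting lymphocytes from death, was at 83.8, 198, 107 and 100.0 CPM against 417, 434, 360 and 389 CPM (log2 -1.79, SE 0.25, edgeR adjusted p = 0.0111). The groups did not overlap. Satb1, a chromatin organiser of naive T cells, was at 33.5, 465, 37.4 and 16.7 CPM in members and at 205, 1356, 114 and 66.4 CPM in the others (log2 -1.79, SE 0.27, edgeR adjusted p = 0.0126). The chemokine gene Ccl5, a product of effector T cells, was at 553, 60.3, 706 and 367 CPM against 1699, 80.9, 2336 and 987 CPM (log2 -1.56, SE 0.23, edgeR adjusted p = 0.0126). Both were lower in members in every one of the 4 libraries.

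**Figure D3:**
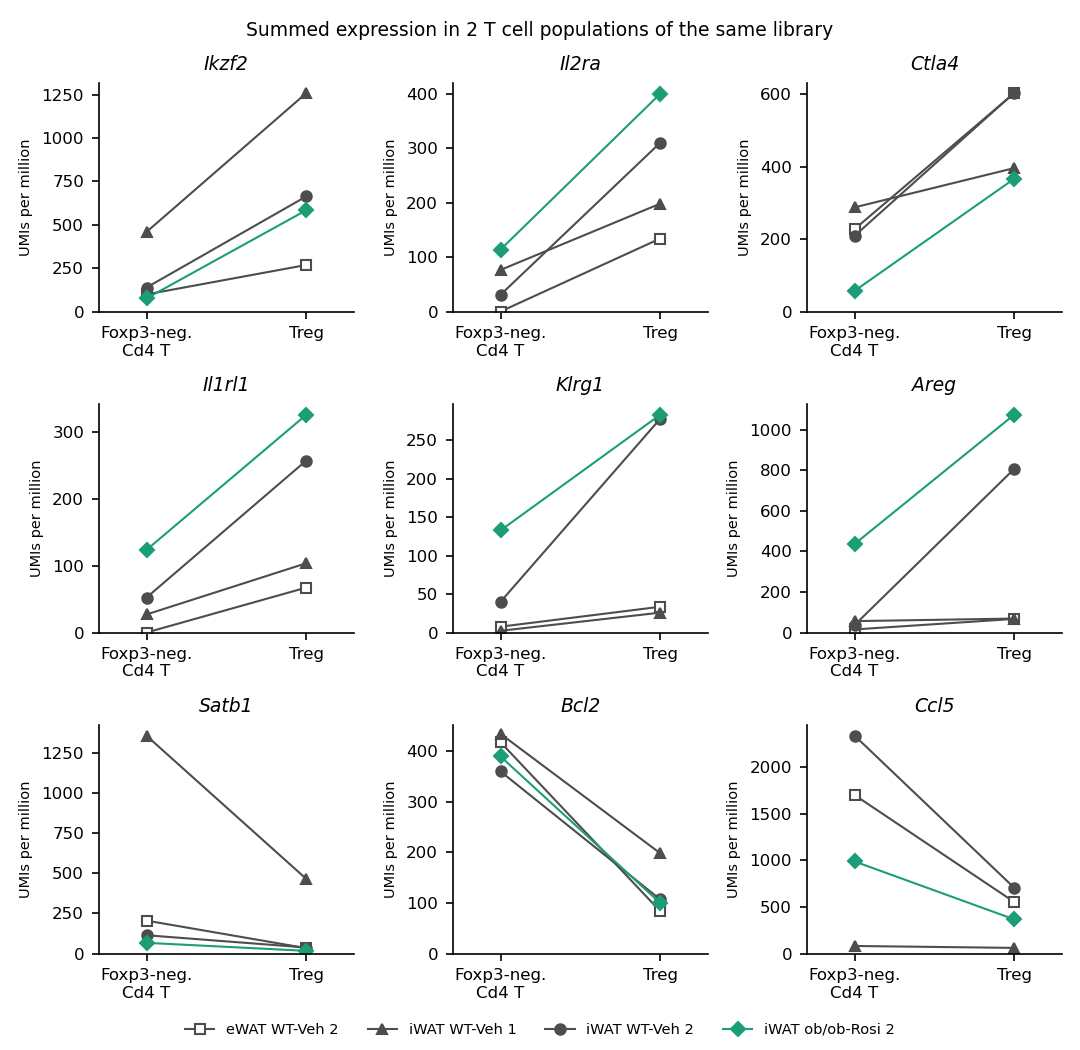
CPM (scaled UMIs, linear y axis) of 9 genes in Foxp3-negative Cd4 T cells and in regulatory T cells, with a line for each of the 4 libraries, open markers for eWAT. Lines of Ikzf2, Il2ra, Ctla4, Il1rl1, Klrg1 and Areg rise in every library, and those of Satb1, Bcl2 and Ccl5 fall.

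The receptor genes of the regulatory programme pointed the same way in each library and missed the threshold in this fit. Il2ra was at 134, 198, 310 and 400 CPM in members and 0, 76.4, 30.7 and 114 CPM in Foxp3-negative Cd4 T cells (log2 2.20, SE 0.41, edgeR adjusted p = 0.0546). For Il1rl1 the values were 67.0, 103, 257 and 325 CPM against 0, 27.0, 52.3 and 123 CPM (log2 1.89, SE 0.34, edgeR adjusted p = 0.0546). Ctla4 stood at 603, 396, 604 and 367 CPM against 228, 288, 209 and 57.0 CPM (log2 1.25, SE 0.28, edgeR adjusted p = 0.104). Members and comparison cells of a gene were closest in iWAT WT-Veh 1 for Ctla4 and Areg. Klrg1, a receptor of terminally differentiated lymphocytes, was at 33.5, 25.8, 278 and 283 CPM against 7.59, 2.25, 40.0 and 133 CPM (log2 1.95, SE 0.40, edgeR adjusted p = 0.0757). Areg, whose product supports tissue repair, was at 67.0, 68.9, 807 and 1075 CPM against 15.2, 56.2, 36.9 and 437 CPM (log2 1.98, SE 0.53, edgeR adjusted p = 0.234).

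The lists of genes, chosen with earlier results known, are given by counts beside the median of -0.021 over all genes tested. Of the 22 genes of the regulatory T cell core, 15 were tested and 13 lay above 0, with a median log2 of 0.49 and 1 call (Ikzf2). Tnfrsf4 (OX40), a costimulatory receptor, was at a log2 of 1.52 (SE 0.33, edgeR adjusted p = 0.0967), and Tnfrsf18 at 0.45 (SE 0.25, adjusted p = 0.584). Of 15 genes of the fat-resident programme, 11 were tested, 9 lay above 0 and none was called (median 0.68). All 8 resting or lymphoid genes lay below 0 with a median of -1.38, and 2 were called lower (Bcl2 and Satb1). Tcf7 and Lef1, factors of naive T cells, were at -2.03 (SE 0.40, edgeR adjusted p = 0.0692) and -1.54 (SE 0.32, adjusted p = 0.077).

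Other pathways held no call in this fit. Of 11 IL-2 receptor signalling genes, 8 were tested and 4 lay above 0 (median 0.02), with Cish, a feedback inhibitor induced by IL-2, at 1.47 (SE 0.42, edgeR adjusted p = 0.281) and the survival gene Bcl2l1 at 1.36 (SE 0.46, adjusted p = 0.353). Pparg was counted too rarely to be tested, with 1, 5, 16 and 6 UMIs in members and 1, 16, 11 and 1 UMIs in Foxp3-negative Cd4 T cells, which in CPM were higher in members in all 4 libraries. Of 20 PPAR target and fat oxidation genes, 11 were tested and 10 lay above 0 (median 0.50, and 0.26 in the fit at 5 cells). The lipid chaperone gene Fabp4 was at 1.20 (SE 0.55, edgeR adjusted p = 0.516) and at -0.18 after thinning to 700 UMIs. Of 83 ribosomal protein genes, 79 were tested and 2 lay above 0, with a median of -0.30 and none called (25 below 0 at p under 0.05 before adjustment).
The remaining lists had 4 to 12 tested genes and none called, at medians of -0.71 for chemokine receptors, 0.36 for the dissociation response, 0.59 for the cell cycle and -0.35 for interferon genes. Of the 12 genes of other T helper fates 3 were tested and none called. Beside these, markers of other cells had none called either, with medians of -0.13 for 8 macrophage, 0.47 for 5 stromal and 0.56 for 3 endothelial genes. The 4 tested genes of the T cell marker list all lay below 0 in members, at a median of -0.89 with none called. The sum of that list of 8, to which the Cd3 genes of the rule and the Cd4 required of the comparison cells belong, was 1860 to 2395 CPM in members and 2705 to 5288 CPM in the comparison cells of the 4 libraries.

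The number of calls rested on single libraries. Without eWAT WT-Veh 2 or without iWAT WT-Veh 2 no gene was called, without iWAT WT-Veh 1 there were 6 higher and 5 lower, and without iWAT ob/ob-Rosi 2 there were 8 and 10. With libraries of at least 5 cells, an alternative chosen after seeing the data, 7 libraries gave 8 genes higher (0.237% of 3370 tested) and 12 lower (0.356%). Those higher were Ikzf2 (log2 2.28, edgeR adjusted p = 2.42e-04), Il2ra (2.01, adjusted p = 0.0166), Il1rl1 (1.57, adjusted p = 0.0442), Klrg1, Areg, Tnfrsf4, Cxcl2 and H2afz. Those lower included Bcl2, Satb1, Tcf7, Lef1 and Ccl5, the costimulatory receptor gene Cd28 (-1.27, edgeR adjusted p = 0.0218) and Ifng (-2.44, adjusted p = 0.0474), the cytokine gene of type 1 helper cells. They also included the ribosomal protein genes Rps16, Rps24 and Rps27, and 66 of the 79 tested of that list lay below 0 at p under 0.05 before adjustment. Over all 3370 genes of this fit, 230 lay below and 101 above 0 by the same measure.

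Members differed widely among themselves in the tissue and the resting genes. At least 1 UMI of Il1rl1, Klrg1 or Areg was found in 101 of 179 members (56.4%), and at least 1 of the resting genes Ccr7, Lef1, Tcf7 or S1pr1 in 71 (39.7%). Both lists were met by 32 cells and neither by 39. The split followed the library. In iWAT WT-Veh 1 the tissue genes were found in 9 of 60 members (15.0%) and the resting genes in 35 (58.3%), whereas over all other libraries they were found in 92 (77.3%) and 36 (30.3%) of 119.

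By library, the tissue genes were found in 26 of 41 members of iWAT WT-Veh 2, 5 of 7 and 36 of 40 of iWAT ob/ob-Rosi 1 and 2, and 7 of 7 in both eWAT ob/ob-Veh 2 and eWAT ob/ob-Rosi 2. The remaining eWAT libraries had 3 of 3 and 5 of 10 in WT-Veh and 3 of 4 in ob/ob-Veh 1. At 700 UMIs per cell the tissue genes remained detected in 67 of 179 members (37.4%) and the resting genes in 39 (21.8%). At that depth iWAT WT-Veh 1 had 7 and 27 of 60 cells, and iWAT ob/ob-Rosi 2 had 25 and 2 of 40. Ccr7, a homing receptor for lymph nodes, was found in 28 members, of which 24 came from iWAT WT-Veh 1.

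**Figure D4:**
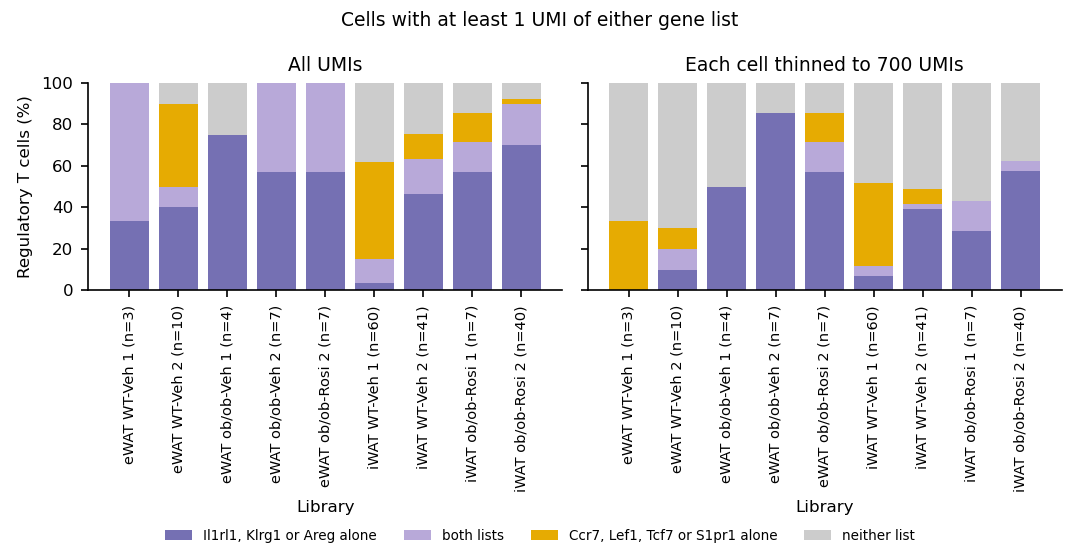
Share of regulatory T cells (%, y axis) with at least 1 UMI of Il1rl1, Klrg1 or Areg, of the resting genes Ccr7, Lef1, Tcf7 or S1pr1, of both or of neither, for each library, with all UMIs and after thinning each cell to 700 UMIs. Resting genes without tissue genes are most frequent in iWAT WT-Veh 1, where tissue genes were found in 9 of 60 cells.

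Expression of the ST2 gene Il1rl1 was examined in every library with members. It was found in 1 of 3 and 3 of 10 members of eWAT WT-Veh, 2 of 4 and 6 of 7 of eWAT ob/ob-Veh, and 2 of 7 of eWAT ob/ob-Rosi 2. In iWAT it was found in 7 of 60 and 19 of 41 members of WT-Veh and in 3 of 7 and 21 of 40 of ob/ob-Rosi. Its level in eWAT was 84.8 and 67.0 CPM in WT-Veh, 1737 and 778 CPM in ob/ob-Veh and 85.2 CPM in ob/ob-Rosi 2. Both ob/ob-Veh libraries stood above the WT-Veh ones without overlap, on 10 and 13 UMIs, of which 8 of the 10 came from 1 cell. Foxp3-negative Cd4 T cells of the same libraries held Il1rl1 at 37.8 and 0 CPM in WT-Veh and 115 and 382 CPM in ob/ob-Veh. Il2ra was also highest in both ob/ob-Veh libraries, at 84.8 and 134 CPM in WT-Veh, 2432 and 718 CPM in ob/ob-Veh and 42.6 CPM in ob/ob-Rosi 2, with 12 of the 14 UMIs of ob/ob-Veh 1 in 1 cell. In the fit of all libraries with at least 5 members, where eWAT ob/ob-Veh 2 was the single ob/ob-Veh library, Il1rl1 differed from WT-Veh by a log2 of 3.06 (SE 0.98, edgeR adjusted p = 0.635) and Il2ra by 2.29 (SE 0.98, adjusted p = 0.635), neither past the threshold.

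Markers of type 2 innate lymphoid cells moved with this difference. The list of 6 (Il7r, Gata3, Il1rl1, Rora, Il5 and Il13), of which 3 also stand in the fat-resident programme, summed to 424 and 737 CPM in members of eWAT WT-Veh and to 5386 and 3890 CPM in those of eWAT ob/ob-Veh. Il1rl1 is itself on this list, so the sum had to move with it in part. Il5 and Il13, the cytokines that define these cells, were at 0 in all members, where 1 UMI was worth 174 and 59.9 CPM in eWAT ob/ob-Veh. Cells with Gata3, Il7r and Ptprc but no Cd3 or Foxp3 UMI numbered 0 and 5 in eWAT WT-Veh, 92 and 70 in eWAT ob/ob-Veh, and 5 and 9 in eWAT ob/ob-Rosi. Measures of cell quality moved as well. The median share of mitochondrial UMIs of members was 3.08% and 2.79% in eWAT WT-Veh, 11.6% and 6.79% in eWAT ob/ob-Veh and 3.35% in eWAT ob/ob-Rosi 2. The dissociation response list stood at 3817 and 5479 CPM in WT-Veh, 26928 and 10474 CPM in ob/ob-Veh and 9072 CPM in ob/ob-Rosi 2. Ribosomal protein genes moved too, at 319393 and 285214, 80090 and 146098, and 232729 CPM in the same order. The authors report lower expression of several of these genes in progenitors and preadipocytes of obese mice, and higher after rosiglitazone. In the fit with eWAT ob/ob-Veh 2 as the single ob/ob-Veh library, 1 of 79 tested lay above 0 against WT-Veh (median log2 -1.31, all genes -0.15). For ob/ob-Rosi against ob/ob-Veh all 79 did (median 1.37, all genes 0.25). The part of none of these in the Il1rl1 and Il2ra levels was tested.

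Areg, Il2ra and Klrg1 were found more often in cells with Il1rl1. Among the 64 members with an Il1rl1 UMI (median 2247.5 UMIs) Areg was found in 59.4%, Il2ra in 59.4% and Klrg1 in 51.6%, and among the 115 without (median 1671 UMIs) in 21.7%, 27.8% and 18.3%. Of these 115, 53 came from iWAT WT-Veh 1. Without that library the shares were 63.2%, 63.2% and 57.9% of 57 cells (median 2190 UMIs) against 38.7%, 37.1% and 30.6% of 62 cells (median 2784.5 UMIs), so the gaps were smaller. Gata3, the factor that maintains Il1rl1 expression in T cells, was then found in 57.9% and 41.9%, and the suppressive cytokine gene Il10 in 22.8% and 12.9%. Ccr7 showed no gap without that library, at 2 of 57 and 2 of 62 cells, and Pparg was found in 12.3% and 12.9%.

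Within single libraries the genes behaved differently. In iWAT WT-Veh 2, with 19 and 22 cells at medians of 3010 and 3350.5 UMIs, Klrg1 was found in 84.2% of Il1rl1-positive and 27.3% of Il1rl1-negative members, and Areg in 68.4% and 18.2%. In iWAT ob/ob-Rosi 2, with 21 and 19 cells at medians of 1789 and 1773 UMIs, the shares were 61.9% and 47.4% for Klrg1 and 71.4% and 47.4% for Areg. Ikzf2 went opposite ways, at 89.5% and 72.7% in the former library and 47.6% and 84.2% in the latter. In iWAT WT-Veh 1, with 7 and 53 cells, Areg was found in 2 of 7 and 1 of 53, Klrg1 in 0 of 7 and 2 of 53 and Gata3 in 0 of 7 and 9 of 53. Areg reached 1395 against 379 CPM in iWAT WT-Veh 2 and 1978 against 254 CPM in iWAT ob/ob-Rosi 2. With the latter 2 libraries and 1 residual degree of freedom, no gene of 1116 tested was called by edgeR (0%) or DESeq2, and before adjustment edgeR found 19 above and 21 below 0 at p under 0.05. Areg was among the former (log2 2.42, SE 0.44, edgeR adjusted p = 0.999), as was Il2ra (1.27, SE 0.33, adjusted p = 0.999).

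Levels were then set beside those of the other lymphocytes of the tissue. Over all libraries Il1rl1 reached 230 CPM in members, 74.5 CPM in Foxp3-negative Cd4 T cells, 9.03 CPM in 1352 CD8 T cells and 995 CPM in 330 cells with Gata3, Il7r and Ptprc but no Cd3 UMI. Areg followed at 594, 101, 12.4 and 1038 CPM, and Il2ra at 290, 57.7, 7.16 and 667 CPM. Klrg1 was at 169, 30.9, 16.8 and 204 CPM. Pooled levels of Ctla4 and Ikzf2 were highest in members, with 475, 203, 85.3 and 30.8 CPM for Ctla4 and 795, 211, 93.4 and 174 CPM for Ikzf2. Without iWAT WT-Veh 1 the order of the 4 kinds of cell was the same for each of these genes but Ikzf2, for which Foxp3-negative Cd4 T cells (106 CPM) fell below the cells without Cd3 (174 CPM), with members at 262 CPM for Il1rl1, 726 CPM for Areg, 313 CPM for Il2ra, 205 CPM for Klrg1, 495 CPM for Ctla4 and 678 CPM for Ikzf2. These pooled levels weight libraries by their cells, of which eWAT ob/ob-Veh gave 162 of the 330 without Cd3 and 11 of the 179 members, and were not tested. Within the 7 libraries with at least 5 members, members stood above the cells without Cd3 in 7 for Ctla4 and Ikzf2, in 2 for Il1rl1, 3 for Areg, 3 for Il2ra and 5 for Klrg1. They stood above CD8 T cells in all 7 for each gene and above Foxp3-negative Cd4 T cells in all 7, except 6 for Ctla4.

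Whether the groups differed in the genes of regulatory T cells could be tested for few libraries. No ob/ob-Veh library held 10 members, so the contrasts with ob/ob-Veh could not be fitted at that minimum. At a minimum of 5 members the ob/ob-Veh arm of both contrasts was 1 library, eWAT ob/ob-Veh 2 with 7 members, whose spread was taken from the other arms. With 7 libraries, 3 residual degrees of freedom and 2193 genes tested, no gene was called between ob/ob-Veh and WT-Veh by edgeR (0% in either direction; before adjustment 56 above and 111 below 0 at p under 0.05) or by DESeq2. With the replicate number as a block, 1 gene was called higher and 8 lower. In members the number also went with the level of Gm42418. This gene, a locus that overlaps ribosomal RNA sequence, stood at 16340 to 78179 CPM in members of the libraries numbered 1 and at 852 to 2782 CPM in those numbered 2. Between ob/ob-Rosi and ob/ob-Veh the count by edgeR was also 0 (109 above and 78 below 0 before adjustment), and 0 by DESeq2.

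The comparison of ob/ob-Rosi with WT-Veh differed in genotype, obesity and drug together and rested on 1 treated library, iWAT ob/ob-Rosi 2. The single eWAT library of the fit was taken up by the depot term, so the contrast was with iWAT WT-Veh 1 and 2, and its 1 residual degree of freedom was the spread between that pair, of which the first stands apart. Of 2977 genes, 27 were called (0.907%), 11 higher (0.369%) and 16 lower (0.537%), by edgeR, and none at the minimum of 5 members (41 above and 39 below 0 before adjustment, and none by DESeq2). The calls are given as differences between these libraries, not between the groups.

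In eWAT WT-Veh 2, iWAT WT-Veh 1, iWAT WT-Veh 2 and iWAT ob/ob-Rosi 2, in this order, the chemokine gene Cxcl14 gave 13, 0, 0 and 31 UMIs, and Pi16, a gene of fibroblast progenitors, gave 1, 0, 12 and 96 UMIs, 42 of the 96 in 1 cell. Igfbp5, which binds insulin-like growth factors, gave 0, 11, 11 and 109 UMIs, with 62 of the 109 in 1 cell. The matrix protein gene Mfap5 gave 1, 6, 15 and 93 UMIs and the granzyme gene Gzma 1, 0, 4 and 28. The other treated iWAT library, ob/ob-Rosi 1, whose 7 members were too few for this fit, held no UMI of Cxcl14, Pi16 or Gzma and 2 UMIs each of Igfbp5 and Mfap5 (52.2 CPM). The summed stromal marker list, all 6 of 6 genes detected, was also highest in iWAT ob/ob-Rosi 2, at 16149 CPM in members against 1223 to 6780 CPM in the 3 WT-Veh libraries, and at 9312 CPM in its Foxp3-negative Cd4 T cells. Its part in these calls was not tested.

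The genes called lower in iWAT ob/ob-Rosi 2 were led by the inflammatory cytokine gene Il1b (5, 16, 103 and 0 UMIs in the same order), Clec10a (7, 24, 20 and 0), Plbd1 (6, 21, 17 and 0), Ranbp2 (4, 29, 11 and 0) and Jarid2 (5, 27, 8 and 0). Cd74, H2-Aa, H2-Ab1 and H2-Eb1, which present antigen on myeloid and B cells, were also called. In iWAT ob/ob-Rosi 1 these genes were not lower throughout. Il1b stood at 235 CPM there, between 138 and 551 CPM in iWAT WT-Veh, and Plbd1 at 261 CPM against 181 and 90.9 CPM, each with all its UMIs in 1 cell. H2-Aa was at 3968 CPM against 1654 and 3175 CPM, with 148 of its 152 UMIs in iWAT ob/ob-Rosi 1 in 1 cell. The macrophage marker list was at 1892 CPM in members of iWAT ob/ob-Rosi 2 and at 3838 to 4195 CPM in the WT-Veh libraries, with Adgre1 at 0 by the rule, and its part was not tested. Other calls followed iWAT WT-Veh 1, such as Satb1, the single call of the resting list, at 465 CPM there and 37.4 CPM in iWAT WT-Veh 2 against 16.7 CPM in iWAT ob/ob-Rosi 2. Lars2 stood at 2128, 58.8 and 58.3 CPM in these libraries, and Gm42418 and AY036118 were called too. These genes were higher in other libraries numbered 1 as well. Lars2 was at 392 CPM in iWAT ob/ob-Rosi 1, at 509 and 83.8 CPM in eWAT WT-Veh 1 and 2, and at 1911 and 0 CPM in eWAT ob/ob-Veh 1 and 2. AY036118 was at 1044 and 66.7 CPM in iWAT ob/ob-Rosi 1 and 2. The treated library of the fit is numbered 2, and the part of the number in these calls was not tested. Of the tested genes of the regulatory T cell core (18) and the fat-resident programme (11), none was called.

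Between depots, the fit at 10 members set 1 eWAT library, WT-Veh 2, against iWAT WT-Veh 1 and 2, since the condition term took up iWAT ob/ob-Rosi 2, again with 1 residual degree of freedom. It called 9 genes (0.302% of those tested), 4 higher (0.134%) and 5 lower (0.168%) in eWAT by edgeR. For 5 of these genes nearly all UMIs of a library came from 1 cell. All 92 UMIs of the macrophage protease gene Mmp12 in eWAT WT-Veh 2 came from 1 cell, as did 16 of the 17 UMIs of Pclaf and all 13 of Cxcl14. Rbp7, lower in eWAT, had 105 of its 107 UMIs in iWAT WT-Veh 2 in 1 cell and the endothelial gene Cldn5 70 of 73. The other counts were spread over more cells. Retnla, a gene of alternatively activated macrophages, gave 1 UMI in eWAT WT-Veh 2 and 292 and 141 in iWAT WT-Veh, in 56 and 27 cells, although the eWAT ob/ob-Veh libraries, with too few members for this fit, stood at 1911 and 1676 CPM. Crlf3 gave 0 against 41 and 34 UMIs, and AY036118 gave 1 against 347 and 2 UMIs. Mgp (23 against 5 and 2) and Cxcl14 (13 against 0 and 0) were called higher in eWAT, while iWAT ob/ob-Rosi 2 held 25 and 31 UMIs of them. Foxp3-negative Cd4 T cells of the same libraries held Retnla at 30.3 against 1929 and 787 CPM. In these cells Mgp was at 349 against 45.0 and 9.22 CPM and Crlf3 at 190 against 490 and 209 CPM. The differences of Retnla and Mgp were thus not particular to members. Cxcl14 and AY036118 of eWAT WT-Veh 2 lay between the iWAT WT-Veh values there.

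With libraries of at least 5 members, 3 genes were higher (0.137%) and 9 lower (0.41%) in eWAT by edgeR, 3 and 4 by DESeq2, and 5 and 26 when the replicate number was a block. The lipid chaperone gene Fabp4, a PPARγ target, was lower (log2 -4.16, SE 0.61, edgeR adjusted p = 0.00176). Its level in members was 84.8, 570, 347, 359 and 383 CPM in the eWAT libraries and 5987, 9275, 11328 and 6908 CPM in the iWAT libraries, which did not overlap. In iWAT WT-Veh 2, however, 1 cell supplied 40.0% of all Fabp4 UMIs of members. Foxp3-negative Cd4 T cells held Fabp4 at 93.8 to 5694 CPM in eWAT and 0 to 6587 CPM in iWAT, so there the depots overlapped. These ranges include libraries without members, among them iWAT ob/ob-Veh 1 and 2 with 1 and 8 such cells. The endothelial marker list moved with it, at 16.8 to 128 CPM in members of the 3 eWAT libraries and 242 to 1148.5 CPM in those of the 4 iWAT libraries, and Rbp7, Sparcl1, Gpihbp1 and Col4a1 were among the other genes called lower. Its part in the Fabp4 difference was not tested.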

How the data were processed

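The authors digested the tissue with collagenase and made 10x Genomics 3-prime v3.1 libraries. They demultiplexed with bcl2fastq 2.19.1.403 and aligned and counted with Cell Ranger 3.0.2 on mm10. They describe the samples as 1 batch, whereas Gm42418 in members differed between the replicate numbers in every condition. The cause of that difference was not tested. The deposited values are unnormalized UMI counts, 1 matrix of 31053 genes by barcodes for each library. Neither a correction for free RNA nor a removal of doublets is stated.

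Members were found on these counts by the rule given above. Members, comparison cells and gene lists were chosen with earlier results of these data known. Member counts were summed per library and fitted with edgeR 4.0.16 in R 4.3.3 (TMM, filterByExpr, quasi-likelihood test) for libraries of at least 10 member cells. A call needed at least a 1.1-fold change and a p of 0.05 or less after Benjamini-Hochberg adjustment, leaving out the genes of the rule. Each SE given with an edgeR fit is the size of the log2 fold change divided by the square root of the test's F statistic. It thus restates the test and is not a separate measure of spread between libraries. Condition fits held condition and depot, and comparisons within libraries held the library as a block. Shares were compared by exact permutation tests in SciPy 1.17.1. DESeq2 1.42.0, other filters, thinning to 700 UMIs and omission of libraries were alternatives. Named genes were, per comparison, up to 5 called in each direction by size of change with at least 50 CPM in the higher group and no overlap, and genes of the fixed marker and pathway lists, of which 1 gene of the resting list is not reported here and was left out of its counts.

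The counts of 3 per library that a share of 0 allows, and intervals at 95%, cover counting error only. Libraries labelled as biological replicates were taken as the replicates. Over summed T cell counts of 2984 genes, deviations of same-numbered libraries from their group means correlated at 0.219 to 0.534 between the depots of a condition, all above 0.1. Between conditions they correlated at 0.173 to 0.350 in eWAT but at -0.0288, 0.0300 and 0.606 in iWAT. Libraries that differed in both depot and condition correlated at 0.0958 to 0.593. By these correlations the numbers were taken to pair depots and not conditions. Since the last range reaches above that of the depots of a condition, this pairing was not established. In members, Gm42418 separated the numbers in every condition, at 16340 to 78179 CPM for number 1 and 852 to 2782 CPM for number 2. The number thus also went across conditions. Condition and depot fits without the replicate block held no term for it. The block in the gene fits took the number as the same in all conditions, and did not pair depots within a condition. No replicate pair agreed within sampling noise (chi-square per degree of freedom 3.33 to 79.6). The stated comparisons between ob/ob-Veh and other groups, and their difference between depots, could not be fitted at 10 cells.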

Additional observations from a re-analysis of the deposited data

Results flagged for a closer look

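In data outside the rule, Foxp3 UMIs in eWAT cells without any UMI of Cd3, Adgre1 or Cd79a were above the WT-Veh level in both ob/ob-Veh libraries. They were found in 0.193% of such cells of eWAT ob/ob-Veh 1 (13 of 6739) and 0.114% of eWAT ob/ob-Veh 2 (6 of 5283), against 0 of 8418, which allows up to 0.0356%, and 0.0682% (2 of 2932) in eWAT WT-Veh. The eWAT ob/ob-Rosi libraries held 0.0397% and 0.0806%. In eWAT WT-Veh 2, 3 counts would be 0.102%, so the step to 0.114% in ob/ob-Veh 2 was small beside counting error. Kept cells had medians of 2046 and 4398.5 UMIs in eWAT WT-Veh and 4717 and 4401 in eWAT ob/ob-Veh. Of the cells of eWAT ob/ob-Veh 1 with the stromal gene Pdgfra and no Cd3 UMI, 7 of 4093 (0.171%) held Foxp3. With Adgre1 and Cd79a cells included, the shares of cells without Cd3 were 0.204% and 0.107% in eWAT ob/ob-Veh and 0.0346% and 0.0510% in eWAT WT-Veh. The difference was not tested, and in iWAT the highest share was that of WT-Veh 1, at 0.601%. Of the 13 cells, 3 held Ikzf2, 3 Il2ra, 3 Il1rl1 and 1 Ctla4, and of the 6 cells 3 held Ikzf2, 2 Il2ra, 2 Ctla4 and 1 Il1rl1. Transcripts of other cells were frequent in them, with the stromal gene Col3a1 in 11 of the 13 and 3 of the 6 cells and the myeloid gene Lyz2 in 6 of the 13 and 6 of the 6.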

How the results depend on the processing

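Shares of T cells depended on depot and rule. In eWAT alone, ob/ob-Veh minus WT-Veh was 0.325 percentage points against -1.28 over both depots, ob/ob-Rosi minus ob/ob-Veh -0.913 against 1.73 (of all cells -0.0322 against 0.0591), and ob/ob-Rosi minus WT-Veh -0.588 against 0.448. The last was -0.271 with the stricter rule and ran from -0.737 to 1.63 when single libraries were left out. eWAT minus iWAT ran from -1.39 to 0.194, the latter without iWAT ob/ob-Rosi 2.

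Counts are given as higher and lower, and the genes were not matched between fits. The number of genes tested also differed, and was 11764 to 14556 without the low-count filter. For ob/ob-Rosi against WT-Veh (11 and 16), DESeq2 called 1 and 4, library-size scaling 7 and 9 and no low-count filter 9 and 1. At 5 cells, at 5 cells with DESeq2 and at 5 cells with the replicate block there were 0 and 0 of 2193 genes tested. Thinning left 179 genes to test against 2977 in the main fit, so it could not show whether the calls held. For eWAT against iWAT (4 and 5), DESeq2 called 1 and 1, library-size scaling 4 and 3, no filter 3 and 2, 5 cells 3 and 9 (DESeq2 3 and 4), and the replicate block at 5 cells 5 and 26. For ob/ob-Veh against WT-Veh the replicate block called 1 and 8 against 0 and 0. Against Foxp3-negative Cd4 T cells (1 and 3), DESeq2 called 6 and 7, library-size scaling 5 and 3, no filter 19 and 28, 5 cells 8 and 12, and thinning, no library block or a minimum of 20 cells 0 and 0. Of these last fits, thinning tested 230 genes, no library block 1859 and a minimum of 20 cells 3075, against 2711 in the main fit. Leaving out single libraries gave 0 to 8 higher and 0 to 10 lower. After thinning Cd36 was at -0.37 and Fabp4 at -0.18, against 0.68 and 1.20. For the Il1rl1 comparison, no filter gave 2 and 1 against 0 and 0. The cause of these changes was not tested.

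With the replicate block, exact permutation p values of the shares were 0.125 to 0.625 with the same differences, and no call changed. For the condition differences this block permuted labels within depot and number. There the permutation p could not fall below 0.125, so no call could change. The replicate block at 10 cells, fits with the stricter rule, fits of eWAT alone, the interaction with depot and most omissions of a library from the condition fits could not be fitted. Fits at 5 cells of the comparison with Cd4 T cells and of the Il1rl1 split, the replicate block, DESeq2 at 5 cells and a rule of 2 Cd3 UMIs were added after seeing the data. Depth limits every value: 1 UMI was worth 5.35 to 174 CPM of a library's members.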
